A study of Caenorhabditis elegans with 4 samples.

Results

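The genes described here encode the subunits of the proteasome, and their transcript levels were measured in wild type *C. elegans* neurons that carry the *Pacr-2*::*gfp* label. The genes were chosen by name. A gene was taken where its symbol was *pas*, *pbs*, *rpt* or *rpn* followed by a number, which gave 32 of the 41560 gene symbols in the deposited tables. Of these, 14 encode the 20S core, with 7 *pas* genes for the alpha ring and 7 *pbs* genes for the beta ring. The other 18 encode the 19S cap, with 6 *rpt* genes for the ATPases of the base, 3 genes for the remaining base subunits (*rpn-1*, *rpn-2* and *rpn-10*) and 9 genes for the lid. The name rule misses a pair of known subunits, *dss-1* and *rpn-13*, which are given below with the pathway.

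The proteasome is the protease that breaks down proteins tagged with ubiquitin in the cytoplasm and nucleus. Its barrel-shaped core encloses the protein-cutting sites between rings of beta subunits, and outer rings of alpha subunits form a gate at either end. The cap docks on the alpha ring, where it binds ubiquitin chains, removes them, unfolds the substrate with its ring of ATPases and threads it into the core. In neurons, ubiquitin ligases and the proteasome are known to act in synapse formation and in the turnover of synaptic proteins.

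The study has 4 samples of cells isolated by FACS. The wild type strain CZ631 (2 samples) and the *acr-2(gf)* strain CZ5808 (2 samples), which carries a gain-of-function allele of an acetylcholine receptor subunit gene, both contain the integrated *Pacr-2*::*gfp* reporter *juIs14*. Animals were young adults, grown for 72 hours at 20°C, and 80000 to 100000 GFP-positive cells were sorted for each sample. The reporter is driven by the *acr-2* promoter, which labels ventral cord cholinergic motoneurons and also neurons in the head and tail that have not been identified. Only the 2 wild type libraries are described, since those of *acr-2(gf)* were not analysed here, and no test between conditions was made. The libraries are called 1 and 2 as the deposited tables are numbered, and the columns themselves carry no replicate number. Nothing in the labels says whether they came from separate cultures, so the spread between them may be technical.

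Levels are given in FPKM, that is, fragments per kilobase of a transcript, relative to all mapped fragments in that library. The authors used Cufflinks, which also gives each value a 95% confidence interval. The unit is per transcript length, so levels of different genes can be set side by side. It was above 0 in at least 1 library for 16902 gene symbols, and 4245 of these were at 0 in the other library. Loci above 0 numbered 13107 in library 1 and 16792 in library 2. Over the 16902 symbols, the log2(FPKM + 1) values of the libraries had a Pearson's r of 0.879. The labeled cell type was checked against fixed marker lists. All 4 core cholinergic markers, all 5 markers of ventral cord cholinergic motoneurons and all 9 pan-neuronal markers were over 10 FPKM in both libraries. Markers of other cells were present too. Of the GABAergic markers 3 of 5 passed the same limit, as did 5 of 6 for body-wall muscle, 5 of 7 for intestine, 2 of 5 for hypodermis and 9 of 9 for germline. From library 1 to library 2, the summed FPKM of the intestinal markers went from 3538 to 1885 and that of the GABAergic markers from 270.0 to 659.1. The pan-neuronal sum went from 12549 to 13893. For body-wall muscle it was 6351 and 6149, for hypodermis 2227 and 2683.5, and for germline 1227 and 1173. Core cholinergic markers summed to 885 and 1191, and ventral cord cholinergic motoneuron markers to 528 and 704. Such sums weigh the highest genes most. The median log2 ratio of library 2 to library 1 was 0.50 for pan-neuronal, 1.24 for GABAergic and -0.76 for intestinal markers. It was 0.31 for core cholinergic, 0.33 for ventral cord, -0.19 for muscle and 0.09 for germline markers. For the 4 hypodermal markers above 0 in both libraries it was 1.27. Single genes went against their sum, such as *sbt-1* (4963 and 4464 FPKM) and *elt-2* (1.68 and 5.36 FPKM). Within the hypodermis list, the cuticle collagen gene *bli-1* was at 0 in library 1, while *col-19*, another cuticle collagen gene, had 2214 and 2652 FPKM. Proteasome genes are used by all of these cells, and the part of other cells in the levels below was not tested.

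Transcripts of nearly all proteasome genes were abundant. In both libraries 31 of the 32 genes were over 10 FPKM, the limit that the study used for an expressed gene, against 34.0% of 19302 protein-coding genes and 16.5% of all gene symbols. At a limit of 100 FPKM, 26 of the 32 passed in both libraries, against 8.19% of protein-coding genes. The median over the 32 genes was 137 FPKM in library 1 and 160 FPKM in library 2, and 149 FPKM for the means of both. The median of the means was 8.80 FPKM over the genes above 0 in at least 1 library and 45.7 FPKM over the genes over 10 in both. The 31 genes that passed ranked from the 84.3 to the 95 percentile of the genes above 0. The remaining gene, *rpn-6.2*, ranked at the 54.7 percentile. Together the 32 genes made up 0.262% of all FPKM in library 1 and 0.331% in library 2.

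**Figure D1:**
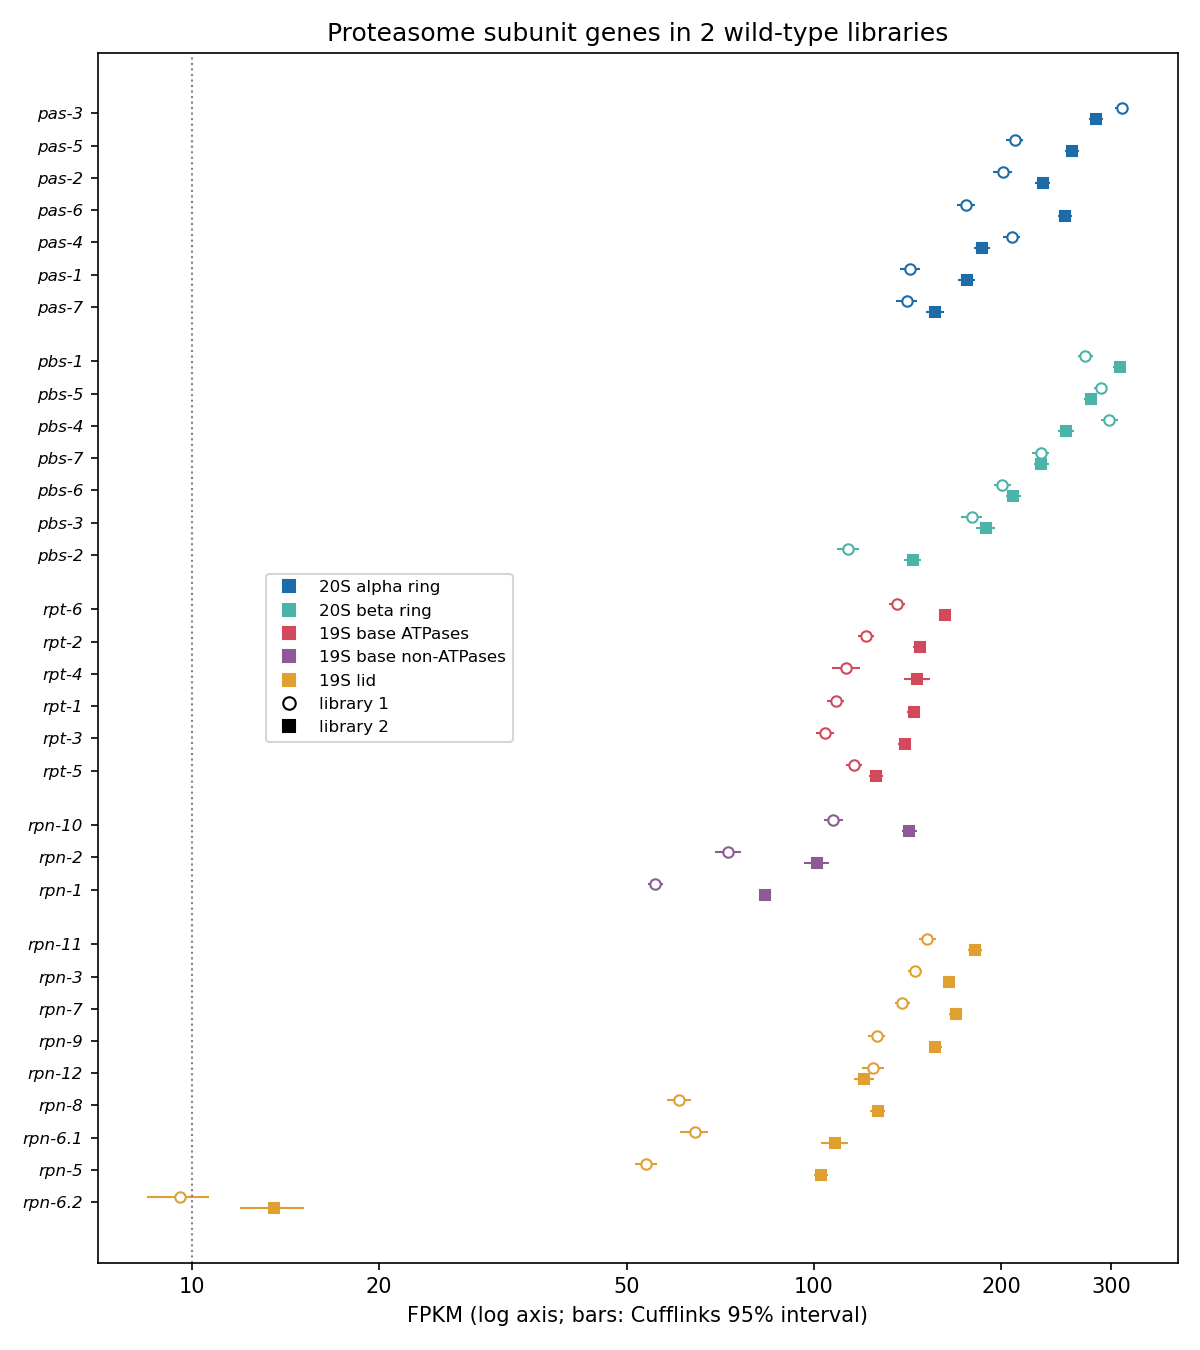
FPKM of each proteasome subunit gene (log axis) in wild type library 1 (open circles) and library 2 (filled squares), colored and grouped by sub-complex and sorted by mean within it. Bars are the Cufflinks 95% intervals and the dotted line marks 10 FPKM. Most *pas* and *pbs* genes lie to the right of all cap genes shown for the same library, apart from *pas-1*, *pas-7* and *pbs-2*. The *rpt* genes lie close to each other, and *rpn-6.2* alone lies at the dotted line, at 9.56 and 13.6 FPKM.

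The alpha ring genes spanned 149 to 298 FPKM in their means, a range of 2.00-fold, with a median of 215. The highest gene of all 32 was *pas-3* (WBGene00003924, chromosome I, 5105250 to 5106048 on ce10), at 312 FPKM in library 1 and 284 in library 2, or 298 ± 19.8 (SD, n = 2). The yeast counterpart of its product supplies a main part of the gate of the core. The next alpha gene, *pas-5*, had 210.3 and 259.7 FPKM. It was followed by *pas-2* at 201 and 233 FPKM. The gene *pas-6* had 175 and 254 FPKM, the widest gap between libraries in this ring. It lay below *pas-4* in library 1 and above it in library 2, since *pas-4* had 208 and 186 FPKM. The lowest of the ring were *pas-1*, at 143 and 176 FPKM, and *pas-7* (WBGene00003928), at 141 and 157. Both were below the other 5 alpha genes in each library. The quotient of *pas-3* to *pas-7* was 2.21 in library 1 and 1.81 in library 2, although an alpha ring holds the products of both genes in equal number.

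The beta ring genes covered a like range, from 129 to 292 FPKM in their means (2.26-fold), with a median of 232. The cutting sites known from the yeast and mammalian core differ in the residues they cut after, and each is carried by its own kind of beta subunit. The gene *pbs-1* (WBGene00003947, chromosome IV, 1708903 to 1709732), whose product has the caspase-like site, had 273 and 309.9 FPKM. For the chymotrypsin-like site, *pbs-5* (WBGene00003951, chromosome I, 14719345 to 14720451) had 289 and 278 FPKM. The gene of the trypsin-like site, *pbs-2* (WBGene00003948, chromosome I, 12967377 to 12968268), had 113 and 144 FPKM and was the lowest of the 14 core genes in both libraries. The 3 genes of the catalytic subunits were thus not level with each other. The quotient of *pbs-1* to *pbs-2* was 2.41 in library 1 and 2.15 in library 2, and that of *pbs-5* to *pbs-2* was 2.55 and 1.93. Among the genes of beta subunits without a cutting site, *pbs-4* was highest at 299 and 254 FPKM. Nearly the same value was found for *pbs-7* in both libraries, 231 and 232 FPKM. The other pair of this kind were *pbs-6*, at 201 and 209 FPKM, and *pbs-3*, at 179 and 189. These 4 genes spanned 184 to 276 FPKM in their means, and these means all lay between that of *pbs-2* and those of the other 2 catalytic genes, though in library 1 alone *pbs-4* was above both.

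The *rpt* genes, whose products form the ring of AAA ATPases that unfolds substrates, had the most even levels of the 5 sub-complexes. Their means lay between 121 and 149 FPKM, a range of 1.23-fold, and their coefficient of variation (CV, the SD over genes divided by the mean) was 8.05%. Over the genes of the other sub-complexes the CV was 23.7% for the alpha ring, 26.4% for the beta ring, 30.2% for the other base genes and 44.4% for the lid, or 27.9% for the lid without *rpn-6.2*. With 3 to 9 genes in each set, these are descriptions and were not tested against each other. The highest ATPase gene was *rpt-6* (WBGene00004506, chromosome III, 12370360 to 12372356), at 136 and 163 FPKM. The gene *rpt-2* was the next in both libraries, at 121 and 148 FPKM. These ranks were shared by the libraries, while those of the other 4 genes were not. In library 1, *rpt-5* was at rank 3 with 116 FPKM, and in library 2 it was the lowest with 126. The remaining values were 113 and 146 FPKM for *rpt-4*, 108 and 145 for *rpt-1*, and 104 and 139.8 for *rpt-3*. All 6 genes were higher in library 2. Taken within each library, the highest of the 6 was 1.31-fold above the lowest in library 1 and 1.29-fold in library 2.

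Of the other base genes, the 2 that encode the large scaffold subunits had low levels. The gene *rpn-1* (WBGene00004458, chromosome IV, 6906625 to 6909893) had 55.6 and 83.3 FPKM, or 69.5 ± 19.6 (SD, n = 2), and *rpn-2* had 72.8 and 101 FPKM. RPN-1 binds shuttle factors and ubiquitin in yeast, and RPN-2 is its structural relative. Their order was the same in each library, with *rpn-2* 1.31-fold above *rpn-1* in library 1 and 1.21-fold in library 2. Their transcripts are also the longest of the set, at 3171 and 3102 nt. The ubiquitin receptor gene *rpn-10* was higher, at 107 and 142 FPKM, which placed it 1.93-fold and 1.71-fold above *rpn-1*.

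The lid genes of the rule ranged from 11.6 to 167 FPKM in their means, and from 78.1 FPKM without *rpn-6.2*. Lid subunits are mostly scaffolds with a PCI domain, joined by a pair of MPN-domain proteins, of which RPN-11 cuts the ubiquitin chain off the substrate and RPN-8 is its inactive partner. The deubiquitinase gene *rpn-11* (WBGene00004467, chromosome II, 4043220 to 4044327) was the highest cap gene of the rule in both libraries. It had 152 and 182 FPKM, or 167 ± 20.9 (SD, n = 2). Its partner *rpn-8* (WBGene00004464, chromosome I, 4175325 to 4177132) had 60.8 and 127 FPKM, or 93.7 ± 46.6 (SD, n = 2), the largest fold difference between the libraries among all 32 genes. The level of *rpn-11* was above that of *rpn-8* in both libraries, by 2.50-fold in library 1 and by 1.43-fold in library 2. The PCI-domain genes fell into a higher and a lower group by their level in library 1. In the higher group, *rpn-3* had 145 and 165 FPKM, *rpn-7* had 139 and 169 FPKM, and *rpn-9* had 126 and 157 FPKM. Among the cap genes of the rule, only *rpn-12*, at 125 and 121 FPKM, was not higher in library 2. After scaling to TPM, *rpn-12* too was higher there. In the lower group, *rpn-6.1* (WBGene00004462, chromosome III, 6959335 to 6961897) had 64.3 and 108 FPKM, and its product clamps the lid to the core in yeast. The other low gene, *rpn-5* (WBGene00004461, chromosome II, 4696595 to 4698289), had 53.7 and 103 FPKM. In library 1, *rpn-5*, *rpn-8* and *rpn-6.1* were set off from the 5 higher lid genes by a wide gap, at 64.3 FPKM or below against 125 and above. In library 2 this gap was smaller, and *rpn-8* then lay above *rpn-12*. There *rpn-12*, at 121 FPKM, was closer to *rpn-6.1* at 108 than to *rpn-9* at 157, so the grouping was not the same.

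The lowest gene of all was *rpn-6.2* (WBGene00010309, chromosome III, 9000020 to 9001896), a paralog of *rpn-6.1*. It had 9.56 FPKM in library 1, with a Cufflinks interval of 8.46 to 10.7, and 13.6 FPKM in library 2, with an interval of 12 to 15.1. The level of *rpn-6.1* was 6.72-fold higher in library 1 and 7.96-fold higher in library 2. It was the only gene of the rule that missed 10 FPKM in a library, and its interval in that library included the limit. Reads from sequence that the paralogs share could have been counted for either gene, which was not tested.

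**Figure D2:**
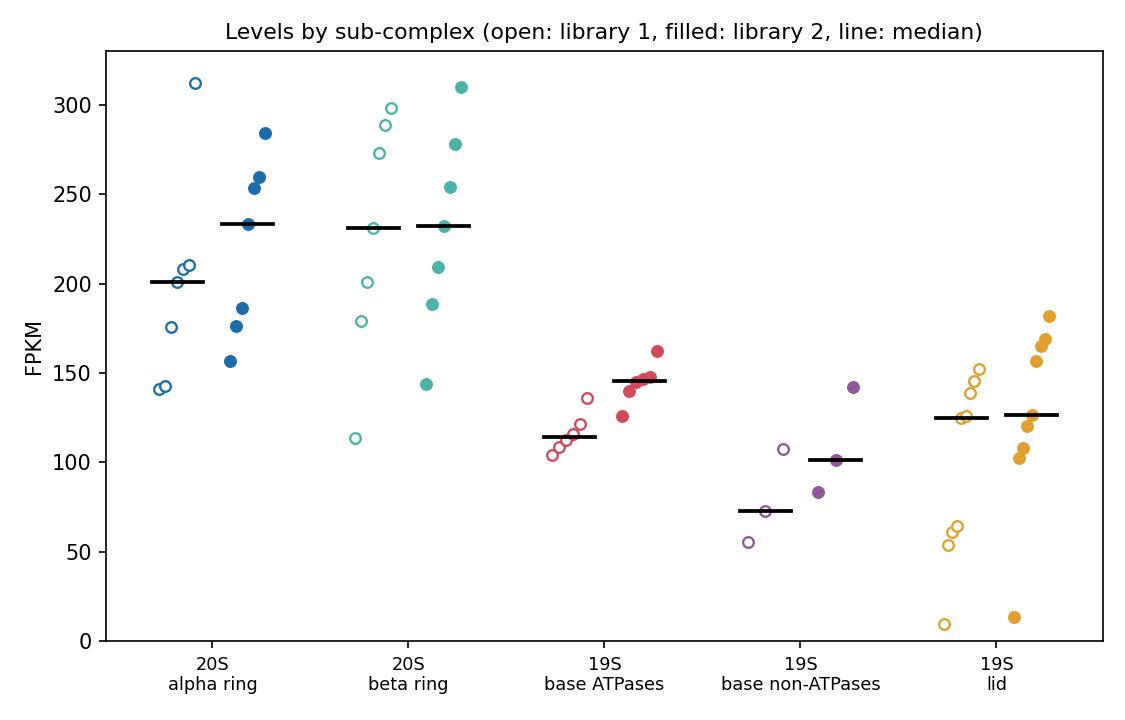
FPKM of the proteasome genes by sub-complex (linear axis from 0), each point a gene in wild type library 1 (open) or library 2 (filled), with a bar at the median over genes. The medians are 201 and 233 FPKM for the alpha ring, 231 and 232 for the beta ring, 114 and 146 for the base ATPases, 72.8 and 101 for the other base genes and 125 and 127 for the lid.

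Ordered by mean FPKM, most core genes of the rule stood above the cap genes of the rule. The lid gene *dss-1*, outside the rule, was above all of them, at 651 and 674 FPKM. The median was 216 FPKM over the 14 core genes and 124 FPKM over the 18 cap genes, a quotient of 1.75, which was 1.85 in library 1 and 1.65 in library 2. In each library, 11 of the 14 core genes were above *rpn-11*, the highest cap gene of the rule. The 3 that were not, *pas-1*, *pas-7* and *pbs-2*, were the same in both. Genes near the ends of the order lay far apart, and *pbs-1*, for example, was 4.91-fold above *rpn-1* in library 1 and 3.72-fold in library 2. Without *rpn-6.2*, the genes ranged 4.29-fold in their means, and with it 25.8-fold. Most neighbours in the order could not be set apart. The ranges of the 2 libraries were separate for 1 of the 31 pairs of neighbours, *rpn-1* above *rpn-6.2*, and the upper gene was higher in both libraries in 8 of the 31. The order as a whole was much alike in the libraries, with a Spearman's rho of 0.956 over the 32 genes, or 0.952 without *rpn-6.2*. This is a correlation across genes, which share each library and are not replicates.

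Transcript length moved with this order. The core transcripts were 801 to 1059 nt long and the cap transcripts 855 to 3171 nt, and over the 32 genes Spearman's rho of the mean FPKM with length was -0.723. Within the core it was -0.352 (n = 14), within the cap -0.298 (n = 18), and over 6706 genes over 10 FPKM it was -0.284. FPKM is already divided by length, but by that in the authors' annotation, which is not known here. The lengths given here are those of the longest WBcel235 transcript. For some genes they exceed the whole deposited locus, as for *rpn-7* (1899 nt against 1328 bp) and *pas-7* (979 nt against 847 bp). The part of length in the difference between core and cap was not tested.

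Most proteasome genes were somewhat higher in library 2. A value above that of library 1 was found for 27 of the 32 genes, and for 26 of the 31 genes over 10 FPKM in both, against 58.3% of the 6839 genes past that limit. The median log2 ratio of library 2 to library 1 was 0.29 over the 31 genes, and 0.12 over all genes past the limit. By sub-complex it was 0.21 for the alpha ring, 0.06 for the beta ring, 0.33 for the ATPases, 0.47 for the other base genes and 0.31 for the lid. Among the genes of the rule, the cap carried more of this than the core. In library 2, 17 of 18 cap genes were higher, with a median of 0.39, against 10 of 14 core genes, with a median of 0.11. Of the subunits outside the rule, *rpn-13* was lower in library 2, with a log2 ratio of -0.22, and *dss-1* had 0.05. In these bulk samples, a change in the share of cells of a type and a change in RNA per cell cannot be told apart. The ratio also depends on the scaling. Rescaled to TPM, a sum of 1000000 per library, all log2 ratios were shifted up by 0.14, 30 of the 32 genes were higher in library 2, and the 2 lower genes were *pas-4* and *pbs-4*. Scaled to the upper quartile, the ratios shifted by -0.05 and 26 of the 32 were higher, with *pbs-7* now among the lower.

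The size of the gap differed widely between genes. It was within 1.5-fold for 28 of the 31 genes, against 64.6% of all genes past the limit. The exceptions were *rpn-8*, which was 2.08-fold higher in library 2, *rpn-5*, which was 1.91-fold higher, and *rpn-6.1*, which was 1.68-fold higher. All 3 are lid genes, and in library 1 they were the lowest of the lid apart from *rpn-6.2*. The library 1 value is also the divisor of the fold, so their low level there is not a separate trait. Next came *rpn-1* at 1.499-fold and *pas-6* at 1.44-fold. In the other direction the largest change was that of *pbs-4*, whose log2 ratio was -0.23.

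The Cufflinks intervals were narrower than this spread. Over the 32 genes their width to either side had a median of 3.15% of the FPKM in library 1 and 2.72% in library 2, while the CV over the 2 libraries had a median of 14% and ran from 0.203% for *pbs-7* to 49.7% for *rpn-8*. The intervals of the 2 libraries did not overlap for 26 of the 31 genes, against 75.7% of all genes past the limit. Of these, 23 were above in library 2 (45.6% of all genes past the limit) and 3 below (30%), namely *pas-3*, *pas-4* and *pbs-4*. Those of *pbs-3*, *pbs-5*, *pbs-6*, *pbs-7* and *rpn-12* overlapped. A gap between the intervals of 2 replicates of 1 condition shows spread between libraries, not an effect.

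**Figure D3:**
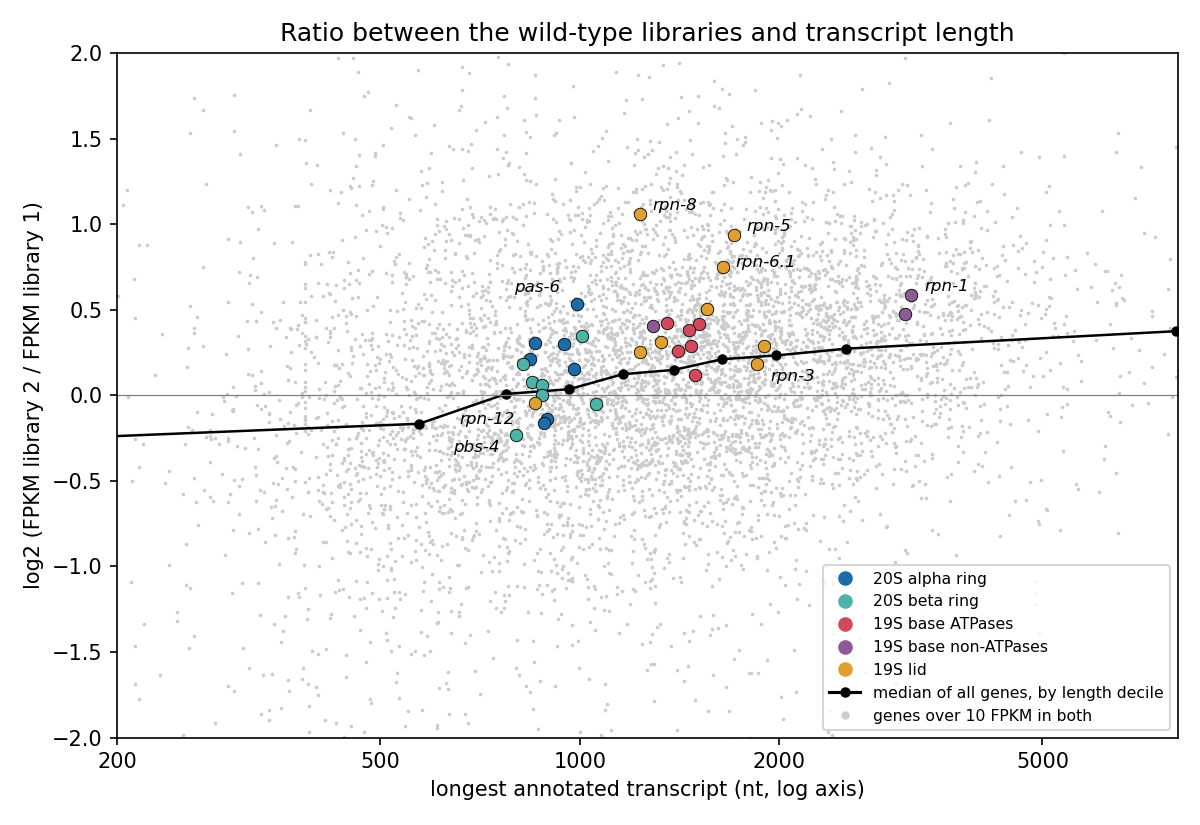
Log2 ratio of FPKM in library 2 to library 1 against the longest annotated transcript (nt, log axis), for the proteasome genes (colored by sub-complex) and 6706 genes over 10 FPKM in both libraries (grey, of which 256 lie outside the axes). The black line joins the medians of all genes in 10 bins of length. It runs upward from left to right, and *rpn-8*, *rpn-5* and *rpn-6.1* lie highest above it.

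Over all genes, the ratio between the libraries was larger for longer transcripts. Over 10 bins of transcript length, the median log2 ratio of all genes past the limit went from -0.24 at 69 to 481 nt to 0.37 at 2908 to 21716 nt. Spearman's rho of the ratio with length was 0.609 over the 32 proteasome genes, 0.242 within the core, 0.276 within the cap and 0.247 over 6706 genes. Set against the median of the genes in its own length bin, the proteasome genes had a median of 0.15 and a range from -0.24 to 0.94, and 24 of the 32 were above 0. For 3 genes it was over 0.5, at 0.94 for *rpn-8*, 0.72 for *rpn-5* and 0.54 for *rpn-6.1*. Transcripts of *rpn-8* and *rpn-11* are almost equal in annotated length (1234 and 1235 nt), and the log2 ratio was 1.06 for *rpn-8* and 0.26 for *rpn-11*. The part of length in the ratios was not tested.

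Genes of other large complexes were set beside those of the proteasome. The 8 *cct* genes of the cytosolic chaperonin had a median of 164 FPKM, close to that of the proteasome genes, with a range of 4.14-fold and a CV of 54.2%. The 19 *vha* genes of the V-ATPase proton pump had a median of 322 FPKM and a CV of 101%, and 17 of them were over 10 FPKM in both libraries. The 75 ribosomal protein genes had a median of 3720 FPKM and a CV of 47.6%. For the 32 proteasome genes the CV was 43.0%, near that of the ribosomal protein genes. It was 50.2% in library 1, against 48.8% for the ribosomal protein genes, and 38.0% in library 2, against 46.7%, so the order of these sets was not the same in both. The *cct* genes had 58.4% and 50.8%, and the *vha* genes 106% and 97.3%. Each set was taken by name (*cct*, *vha*, or *rps* and *rpl*, followed by a number), with its lowest and highest genes kept. Subunits with other names are not in it. Between the libraries, the *cct* and *vha* genes had a median log2 ratio of 0.22 each, and the ribosomal protein genes, whose transcripts are short with a median of 538 nt, of -0.45. These sets differ in number and in transcript length, and the differences between them were not tested.

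Ubiquitin and the factors that bring substrates to the proteasome were present at widely differing levels. Of the 34 genes looked up for the rest of the pathway, 33 were over 10 FPKM in both libraries, against 34.0% of protein-coding genes, and the median was 84.9 FPKM. A higher value in library 2 was found for 25 of the 34, against 58.3% of all genes past the limit. The small lid subunit gene *dss-1* had 651 and 674 FPKM, which was 5.20-fold and 4.76-fold above the median of the other lid genes without *rpn-6.2*, and above every gene of the rule. The ubiquitin receptor gene *rpn-13*, listed under its sequence name C56G2.7, had 148 and 127 FPKM and lay within the range of the cap. The ubiquitin genes were higher than any gene of the rule. The fusion of ubiquitin with a ribosomal protein, *ubq-2*, had 6652 and 4646 FPKM, and the polyubiquitin gene *ubq-1* had 652 and 900.2. The sole E1 enzyme gene of the list, *uba-1*, which activates ubiquitin, had 69.5 and 97.2 FPKM. The lower bound of its Cufflinks interval was 0 in library 1, so its level there is not well fixed. All 9 E2 genes passed the limit. The highest was *let-70* at 1564 and 1351 FPKM, and the lowest *ubc-6* at 65.8 and 56.0.

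**Figure D4:**
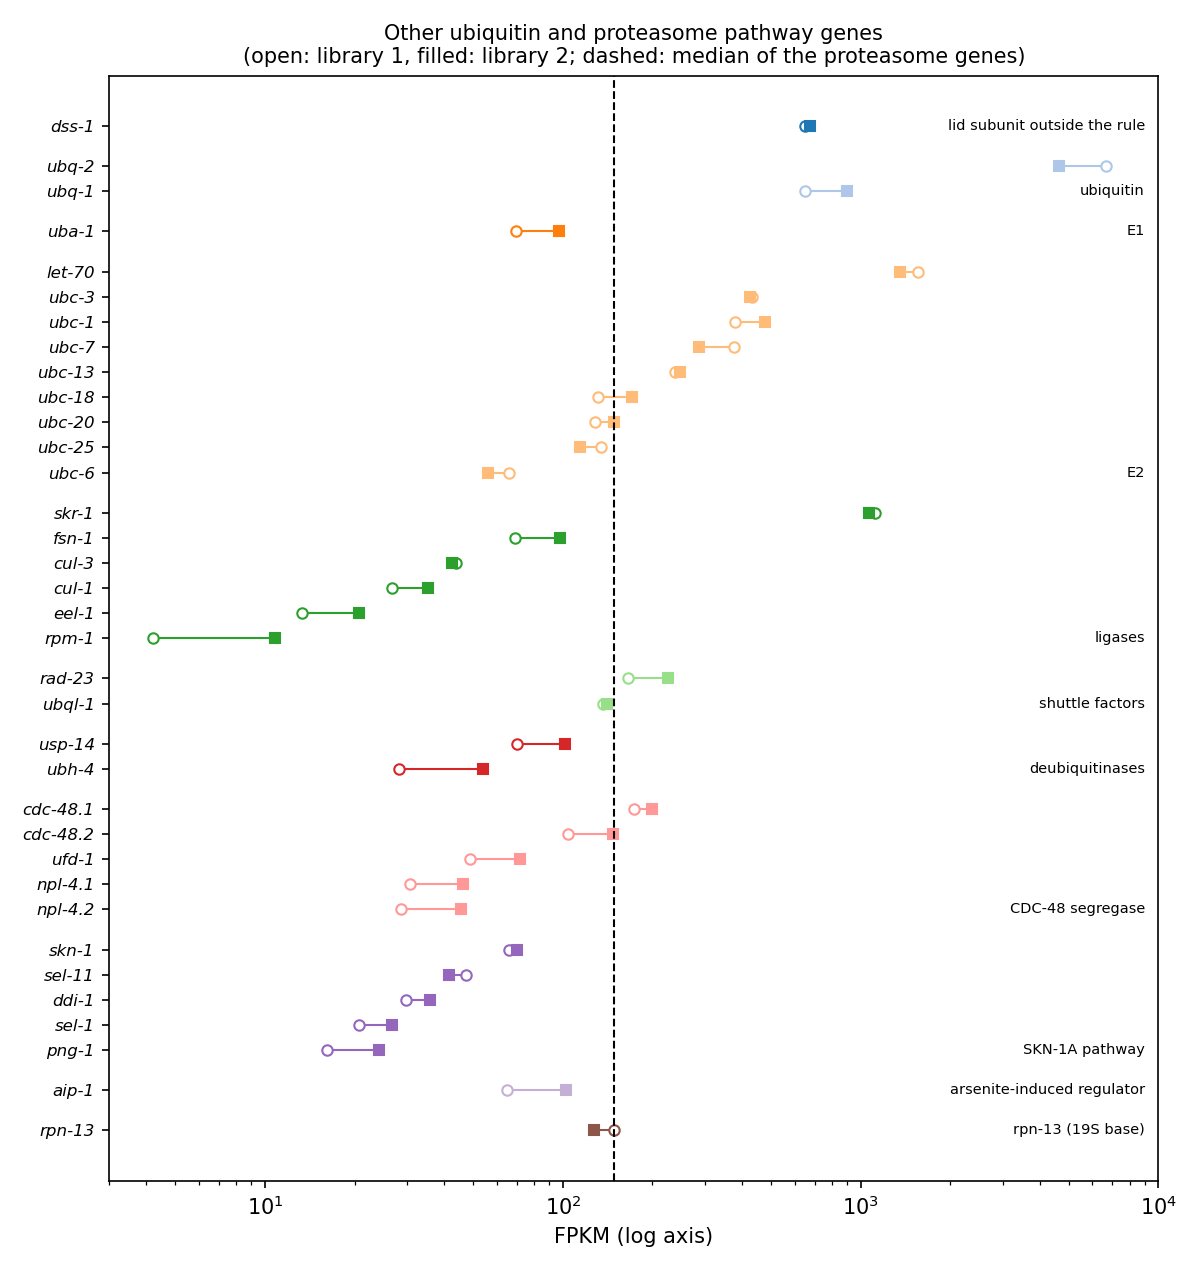
FPKM (log axis) of genes that act with the proteasome in wild type library 1 (open circles) and library 2 (filled squares), grouped by role. The dashed line marks 149 FPKM, the median of the mean FPKM over the 32 proteasome genes. Ubiquitin genes, *dss-1*, *let-70* and *skr-1* lie to the right of the line, and most ligase, CDC-48 and SKN-1A pathway genes to the left.

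Ligase genes were mostly low. The adaptor gene *skr-1* had 1117 and 1067 FPKM, while the cullin genes *cul-1* and *cul-3* had 26.7 and 35.3 FPKM and 43.9 and 42.6 FPKM. The ligase gene *rpm-1*, which acts in synapse formation, had 4.19 and 10.8 FPKM. It was the 1 pathway gene not over the limit in both libraries, and it missed the limit in library 1 only. The gene of its F-box partner *fsn-1* had 69.2 and 97.8 FPKM. Shuttle factors carry ubiquitin-tagged proteins to the cap. Their genes *rad-23* (166 and 225 FPKM) and *ubql-1* (136 and 141 FPKM) were within the range of the subunit genes. The deubiquitinases that bind the cap were lower, with *usp-14* at 70.4 and 102 FPKM and *ubh-4* at 28.1 and 54.

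CDC-48 is an ATPase that pulls tagged proteins out of complexes and membranes. Its genes *cdc-48.1* (173 and 199 FPKM) and *cdc-48.2* (104 and 148 FPKM) were both over 100 FPKM in each library, as were all ATPase genes of the base, and reads of this pair of paralogs could have been shared. The cofactor genes *ufd-1*, *npl-4.1* and *npl-4.2* were at 37.1 to 60.3 FPKM in their means. Reads of *npl-4.1* (30.7 and 46.3 FPKM) and *npl-4.2* (28.5 and 45.7 FPKM) could also have been shared, which was not tested. When proteasome function is impaired, the SKN-1A form of the transcription factor SKN-1 is known to raise the transcription of subunit genes, after release from the ER and processing by the protease DDI-1 and the glycanase PNG-1. The gene *skn-1*, measured over all its isoforms, had 65.9 and 70.3 FPKM. For *ddi-1*, listed as C01G5.6, the values were 29.7 and 35.9 FPKM, and for *png-1* they were 16.1 and 24.2. All 5 genes of this route, with *sel-1* and *sel-11*, had means below those of the 31 subunit genes other than *rpn-6.2*. The closest was *skn-1*, at a mean of 68.1 FPKM against 69.5 FPKM for *rpn-1*. In library 1 alone the order turned for *skn-1*, which lay above *rpn-1*, *rpn-5*, *rpn-6.1* and *rpn-8*.

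On ce10, the build named in the submitters' processing notes, the proteasome genes are spread over the autosomes. There are 10 on chromosome I, 7 on II, 7 on III, 3 on IV, 5 on V and 0 on X, which holds 13.6% of the protein-coding genes in the tables. Chromosome I, with 14.4% of protein-coding genes and 18.3% of genes over 10 FPKM in both libraries, holds 7 of the 14 core genes. Chromosome III, with 13.2% and 18.1%, holds 6 of the 18 cap genes. These are the largest counts of the core and of the cap, and they were not tested. The nearest pair, *pbs-7* and *pas-4* on chromosome I, are 31046 bp apart, and the next nearest 163729 bp, so members of the set do not lie side by side. In the WBcel235 annotation, 7 of the 32 (21.9%) start within 500 bp of the end of another gene on the same strand, against 18.2% of protein-coding genes. These are *pas-1*, *pbs-3*, *pbs-5*, *rpn-10*, *rpn-11*, *rpn-6.2* and *rpt-3*. Another protein-coding gene overlaps 10 of the 32 (31.2%) there, against 26.5% of all protein-coding genes. They are *pas-7*, *pbs-3*, *pbs-4*, *pbs-7*, *rpn-7*, *rpn-10*, *rpn-11*, *rpt-2*, *rpt-4* and *rpt-6*. The other gene is on the opposite strand for all but *pbs-7*. The use of strand in the counting is not given in the sources used here, so reads of these 10 and their partners cannot be told apart where they overlap.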

How the data were processed

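Neurons labeled by *Pacr-2*::*gfp* were isolated by FACS and sequenced on a HiSeq4000. The authors mapped single-end reads with TopHat in Galaxy, computed the FPKM of each gene with Cufflinks and deposited it with its 95% interval for the 2 wild type libraries. The FPKM and lower bound were used, the upper bound was set as far above the FPKM as the lower is below, and the 2 deposited columns of upper bounds were not used. The submitters' processing notes name the build ce10 and also HTSeq and DESeq2, whose output was not used here. Program versions, annotation and strand use are not given in the sources used here. The paper gives only a range of reads per sample, and the depth of each single library is not known here, as no read counts were used.

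Both tables held 42518 loci and were joined by locus, and 11 symbols that had turned into dates in library 1 were taken from library 2. For 508 symbols with several loci, 0 of them proteasome genes, the locus with the highest mean was kept. FPKM summed to 1828630 in library 1 and 1663310 in library 2. No value of a proteasome gene was left out, and the deposited status was OK for all 32 in each library. No pseudocount was used except for Pearson's r. Every gene that matched the name pattern is named with its values, and pathway genes and markers came from lists. The genes and lists were chosen with earlier results of these data known. With 1 condition and 2 libraries no test was run. Values are means with the SD over 2 libraries, medians over genes, and shares of all genes called the same way. Loci were printed 1-based. Transcript lengths, strands and gene neighbours are from WBcel235 (Ensembl release 115), in which 98.1% of genes over 10 FPKM had a length, and RefSeq names gave C56G2.7 and C01G5.6 their symbols. The loci were not converted between builds. Python 3.11.15, numpy 2.4.6, pandas 2.3.3, scipy 1.17.1 and matplotlib 3.10.9 were used, and the calculations were tested on simulated data. Alternatives were other FPKM limits, the lower bound, TPM, upper-quartile scaling, pseudocounts, other reference sets of genes, sums over loci, centring, and each library left out.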

Additional observations from a re-analysis of the deposited data

How the results depend on the processing

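The count of 31 genes over 10 FPKM stayed between 26 (limit of 100 FPKM) and 32 under the limits tried, and was 31 with the lower bound or TPM and 31 to 32 with a library left out. Rescaling to TPM lowered the medians to 85.9 for all genes, 124 for the alpha ring, 133 for the beta ring, 74.0 for the ATPases, 50.3 for the other base genes and 70.3 for the lid, in TPM and not FPKM. Upper-quartile scaling gave 228 FPKM for the beta ring and 121 FPKM for the lid. The median percentile, 91.2 among genes above 0, was 78.8 among genes over 10 FPKM in both libraries and 96.4 among all genes listed, since these sets hold fewer or more low genes. The median log2 ratio ran from 0.15 to 0.42 over all alternatives, of which centring on genes of the same transcript length, which gave 0.15, was chosen after seeing the data. With 1 library left out, the median was 137 to 160 FPKM for all genes, 201 to 233 for the alpha ring, 231 to 232 for the beta ring, 114 to 146 for the ATPases, 72.8 to 101 for the other base genes and 125 to 127 for the lid, and the percentile 90.7 to 91.8. The CV was then 38.0% to 50.2% for all genes, 21.9% to 29.1% for the alpha ring, 24.3% to 29.6% for the beta ring, 8.24% to 9.70% for the ATPases, 27.7% to 33.6% for the other base genes and 40.3% to 52.2% for the lid. Summing over loci changed no value. No paired analysis was possible because the libraries of only 1 condition were used, which leaves no second group to pair with.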
